A study of Mus musculus with 6 samples.

Results

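The dopamine receptor genes Drd1, Drd2, Drd3, Drd4 and Drd5 and 4 genes that act with them in the striatum, Ppp1r1b, Adora2a, Rgs9 and Gnal, were found by gene symbol. Each of these 9 genes is 1 of the 23282 entries of the count tables. RNA came from the whole forebrain, without olfactory bulbs and cerebellum, of wild-type (WT) C57BL/6J males aged 8 to 10 weeks, given a normal chow diet (NCD) or a high-fat diet (HFD, 60% of kcal as fat) over 10 days. The forebrain was split into its 2 hemispheres for RNA and metabolite work. Each diet had 3 libraries, of 6842785 to 9689372 counts, and since no label ties a library to its own mouse, the p-values measure the spread between libraries. The study asked how the brain responds to a short exposure to dietary fat, and the comparison is read here for the dopamine system.

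Dopamine acts in the striatum on G protein-coupled receptors of 2 classes. The D1-like receptors, from Drd1 and Drd5, raise cyclic AMP, and the D2-like receptors, from Drd2, Drd3 and Drd4, lower it. Projection neurons of the direct pathway carry the D1 receptor, while those of the indirect pathway carry the D2 receptor and the adenosine receptor encoded by Adora2a. In both, cyclic AMP drives protein kinase A, which acts on DARPP-32, and the system is known for its part in movement, reward and the drive to eat.

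The start regions of the D1 receptor gene, the most counted receptor, and of the 2 receptor genes with almost no counts are shown to set them side by side. They reach from 250 bases before to 50 bases after a RefSeq start on GRCm38.p6 and are written 5′ to 3′ on the strand of the gene. Capitals mark a match on either strand to a TATA box (TATAAA), to a GC box (letters GGGCGG) or to the first part of the cyclic AMP response element (letters TGACG).

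Drd1 first start, chr13:54055609-54055908, minus strand: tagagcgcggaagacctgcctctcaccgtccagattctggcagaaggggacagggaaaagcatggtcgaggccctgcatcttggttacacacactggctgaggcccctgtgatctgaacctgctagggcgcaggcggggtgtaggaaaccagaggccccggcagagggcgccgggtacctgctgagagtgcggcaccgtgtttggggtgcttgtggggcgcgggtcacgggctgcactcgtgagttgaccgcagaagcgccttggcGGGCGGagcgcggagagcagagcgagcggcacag
Drd1 second start, chr13:54054731-54055030, minus strand: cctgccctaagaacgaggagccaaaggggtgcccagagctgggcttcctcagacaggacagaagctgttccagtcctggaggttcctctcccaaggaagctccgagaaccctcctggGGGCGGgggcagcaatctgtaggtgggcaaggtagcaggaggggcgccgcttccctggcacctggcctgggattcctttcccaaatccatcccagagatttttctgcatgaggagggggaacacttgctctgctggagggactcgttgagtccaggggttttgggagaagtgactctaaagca
Drd2, chr9:49340153-49340452, plus strand: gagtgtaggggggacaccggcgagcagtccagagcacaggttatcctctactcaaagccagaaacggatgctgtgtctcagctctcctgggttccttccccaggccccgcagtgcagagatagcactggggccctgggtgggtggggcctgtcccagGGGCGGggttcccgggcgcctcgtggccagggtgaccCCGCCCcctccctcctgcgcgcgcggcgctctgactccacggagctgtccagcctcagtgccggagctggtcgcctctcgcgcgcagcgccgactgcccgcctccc
Drd3, chr16:43761971-43762270, plus strand: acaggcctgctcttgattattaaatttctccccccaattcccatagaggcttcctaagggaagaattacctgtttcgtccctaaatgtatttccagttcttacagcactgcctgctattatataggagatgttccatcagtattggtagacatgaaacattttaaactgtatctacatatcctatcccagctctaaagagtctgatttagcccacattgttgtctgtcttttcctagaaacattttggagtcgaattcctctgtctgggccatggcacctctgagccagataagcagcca

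RefSeq windows were read for 6 of the 9 genes, 7 windows in all. None was matched for Ppp1r1b and Adora2a, and windows on chromosome 18, where Gnal lies, were left out of the match. The GC box was present in 6 of the 7, all but that of Drd3, and in 35.7% of 32851 windows of this length. The TATA box was present in 1 of the 7, that of Rgs9, and in 13.6% of all. The response element part was in 0 of the 7 and in 20.8% of all. An E-box, spelled CANNTG, was in 2 of the 7, those of Rgs9 and of the second Drd1 start, and in 72.3% of all. Matches that overlap were each counted. G and C made up 70.3% of the Drd2 window, 65.7% of the first Drd1 window and 42.0% of the Drd3 window, beside a median of 52.7%. The Drd3 window lies inside the gene, which GENCODE starts at 43754026, so it is not at the first annotated start of Drd3. These are properties of the letters, and QuantSeq, which reads the 3′ ends of transcripts, does not measure start sites.

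None of the genes that could be tested passed a test of the diet. Levels are in CPM, the count scaled to the size of the library with edgeR's TMM factors. The count filter passed 6 of the 9 genes and left out Drd2, Drd3 and Drd4. An adjusted p under 0.05 was reached by 0 of the 6 and by 0 of all 13771 genes (0.0%) in the quasi-likelihood test of edgeR, and an unadjusted p under 0.05 by 0 of the 6 and by 3.68% of all (1.98% lower and 1.71% higher with HFD). DESeq2 and limma on quantile-normalized values called 0 of the 6 at either threshold. Over all genes DESeq2 called 2 and limma 0 after adjustment. Diets that did not overlap were found for 0 of the 6 and for 8.81% of all genes (4.49% lower and 4.31% higher). HFD was the lower diet by log2 fold change in 5 of the 6, with a median of -0.11, while 50.6% of all genes were negative with a median of -0.0025. The 6 genes share libraries and are not independent. In bulk RNA, fewer cells of a type and less RNA per cell cannot be told apart.

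**Figure D1:**
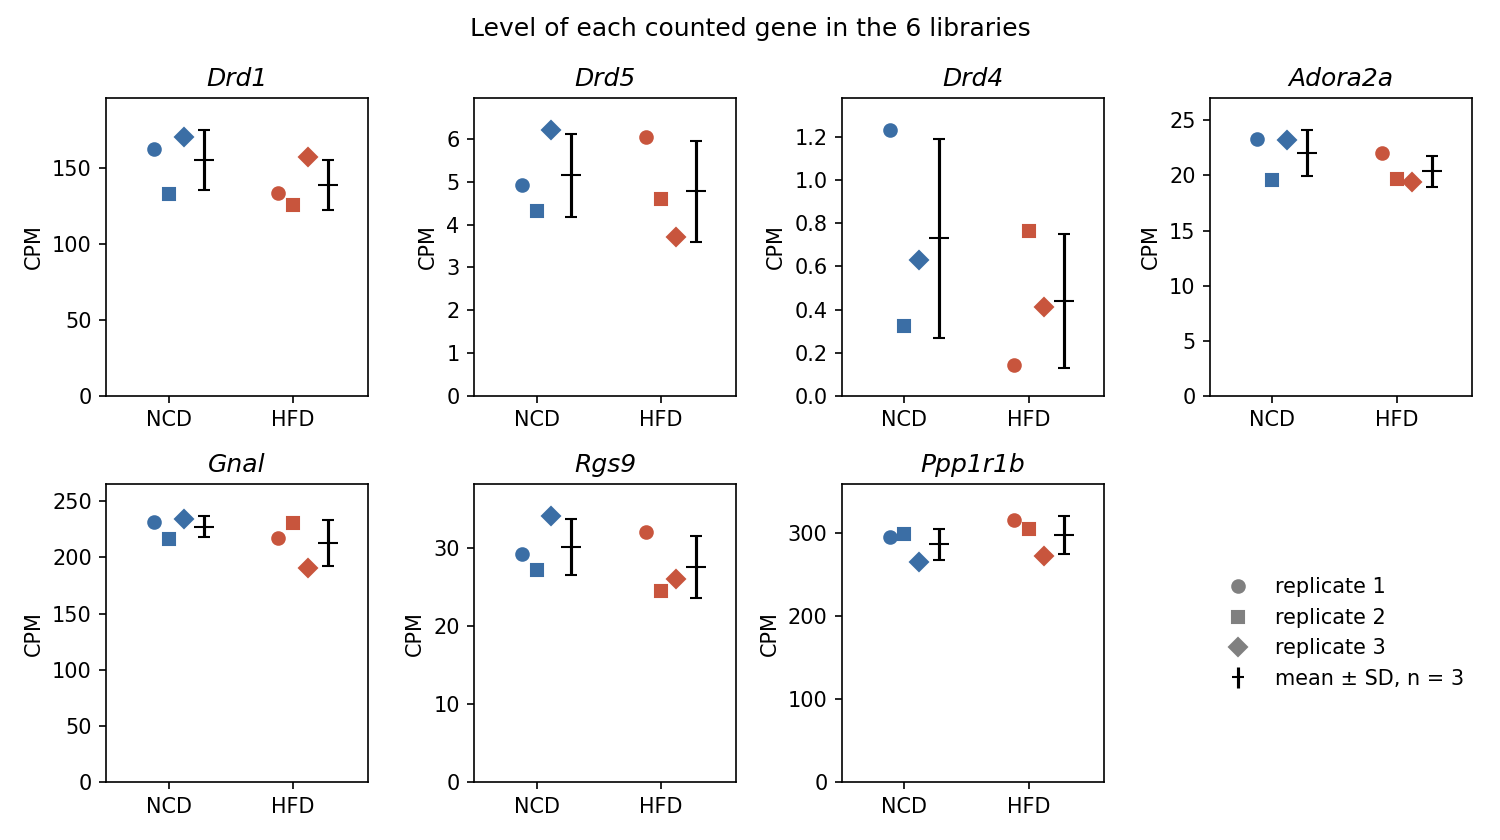
CPM (vertical axes, from 0, scaled apart for each gene) of the 7 genes with more than 1 count, in 3 NCD libraries (blue) and 3 HFD libraries (red); black marks are the mean ± SD of a diet. The diets overlap in each panel.

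Drd1, the main striatal receptor that raises cyclic AMP, lies on the minus strand of chromosome 13 from 54051183 to 54055705 (GRCm38). NCD replicates 1, 2 and 3 held 163, 133 and 171 CPM and HFD replicates 1, 2 and 3 held 134, 126 and 158 CPM. The highest level was that of NCD replicate 3 and the lowest that of HFD replicate 2, while NCD replicate 2 lay below HFD replicates 1 and 3. The average was 156 ± 19.7 CPM with NCD and 139 ± 16.5 CPM with HFD (SD, n = 3 each). HFD differed from NCD by -0.16 in log2 fold change (standard error 0.12, 95% interval -0.42 to 0.0965, adjusted p = 0.979 in edgeR), an interval of 0.747 to 1.07 times the NCD level. Leaving out HFD replicate 3 gave -0.26 with an unadjusted p of 0.0276 and an adjusted p of 0.99986 in edgeR. Leaving out NCD replicate 2 gave -0.26 with 0.0655 and 0.970. The other omissions gave -0.14 to -0.0892. With 1 library left out, 411 to 773 of all genes had an unadjusted p under 0.05. HFD replicate 3 also held 7943 counts of the growth hormone gene Gh, a pituitary transcript, against 12 to 71 in the other libraries, and its part in the Drd1 value was not tested.

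Drd5, the other D1-like receptor, lies on chromosome 5 from 38319367 to 38322518. For this gene NCD replicates 1, 2 and 3 held 4.94, 4.31 and 6.22 CPM and HFD replicates 1, 2 and 3 held 6.05, 4.59 and 3.71 CPM. HFD replicate 1 was next to the highest NCD library, and HFD replicate 3 was the lowest of the 6. The difference was -0.11 on the log2 scale (standard error 0.29), and at 27 to 59 counts per library its 95% interval, -0.72 to 0.50, was the widest of the 6 genes. The sign turned to 0.0465 without NCD replicate 3 and to 0.0320 without HFD replicate 3. An antisense gene, Gm26560, shares 1531 exon bases with Drd5 and is not listed in the count tables, so its level is unknown. Whether the counting used strand is not given in the sources used here.

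Of the D2-like receptors only Drd4 had more than a stray count. Drd2, the receptor of the indirect pathway and of dopamine neurons themselves, had 0 counts in 5 libraries and 1 in HFD replicate 2, which is 1 among the 50295712 counts of all libraries. Drd3, known from the ventral striatum, lies on chromosome 16 from 43754026 to 43822932 and had 0 counts in every library. A count of 0 allows up to 3 counts, or 0.316 to 0.432 CPM in these libraries, which covers counting error only. No fold change is given for these genes. Transcripts of the same indirect-pathway neurons were counted well, since Penk, the enkephalin precursor, had 1766 to 2550 counts per library and Adora2a 141 to 220.

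Gpr6 and Gpr52, markers of indirect-pathway neurons, were near 0 as well, while others on that list were counted, Grik3 at 139 to 264 and Sp9 at 27 to 75 counts per library. Gpr6, an orphan receptor of these neurons, had 1 count in NCD replicate 3, 1 in HFD replicate 3 and 0 elsewhere, and Gpr52, another orphan receptor, had at most 2 in a library. Drd2 spans 49340627 to 49408177 of chromosome 9 in GENCODE vM21, which may not be the annotation behind the counts. The next gene past its 3′ end, Ankk1, lies 7017 bases away on the other strand and had 0 counts in every library. A poly(A) signal (AATAAA, or its usual variant with the letters ATTAAA) was looked for in the last 50 bases of coding transcripts. It was present in 1 of 1 transcript of Drd2 and 0 of 2 of Drd3, and 8 of the 9 genes had it in at least 1 transcript, as did 86.6% of tested genes and 58.1% of genes with 0 or 1 count. The cause of the missing Drd2 counts was not tested.

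Drd4, a D2-like receptor also found in cortex and retina, lies on chromosome 7 from 141292006 to 141296464. NCD replicates 1, 2 and 3 held 10, 3 and 6 counts and HFD replicates 1, 2 and 3 held 1, 7 and 3 counts. The highest library and the one next to the lowest were both on NCD, so the diets overlapped, and 3 libraries were at or under the floor of 3 counts. The average was 0.730 ± 0.463 CPM with NCD and 0.440 ± 0.311 CPM with HFD (SD, n = 3 each). An exact two-sided permutation test gave p = 0.5, where 3 libraries against 3 cannot go below 0.1. Fitted without a filter, which let 0.121% of all genes reach an adjusted p under 0.05 and 4.76% an unadjusted one, Drd4 differed by -0.64 with a standard error of 0.92.

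Adora2a encodes the adenosine receptor that opposes the D2 receptor and is blocked by caffeine, and it lies on chromosome 10 from 75316877 to 75334784. For this gene NCD replicates 1, 2 and 3 held 23.3, 19.6 and 23.2 CPM and HFD replicates 1, 2 and 3 held 22, 19.7 and 19.4 CPM. NCD replicate 2 was among the low HFD libraries, and HFD replicate 1 was close to the other NCD libraries. The average was 22 ± 2.09 CPM with NCD and 20.4 ± 1.45 CPM with HFD (SD, n = 3 each). The difference of -0.12 in log2 fold change was smaller than its standard error of 0.14 (95% interval -0.42 to 0.19).

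Gnal encodes the alpha subunit of Golf, the G protein that couples the D1 and Adora2a receptors to adenylyl cyclase, and lies on chromosome 18 from 67088216 to 67226792. NCD replicates 1, 2 and 3 held 232, 216 and 234 CPM and HFD replicates 1, 2 and 3 held 218, 231 and 190 CPM. HFD replicate 3 was the lowest, below a narrow range that the other 5 libraries shared. The difference was -0.0942 in log2 fold change (standard error 0.11, 95% interval -0.32 to 0.13), and -0.0189 without HFD replicate 3. Mppe1, at 33 to 80 counts, shares 852 exon bases with Gnal on the other strand.

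Rgs9 encodes a regulator that returns G proteins to rest, and lies on the minus strand of chromosome 11 from 109225355 to 109298129. For this gene NCD replicates 1, 2 and 3 held 29.1, 27.1 and 34.0 CPM and HFD replicates 1, 2 and 3 held 32.0, 24.5 and 26.0 CPM. HFD had the 2 lowest libraries, but HFD replicate 1 was above NCD replicates 1 and 2. The difference was -0.14 in log2 fold change (standard error 0.15, 95% interval -0.44 to 0.17), and with 1 library left out it lay between -0.25 (no HFD replicate 1) and -0.0356 (no NCD replicate 3).

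Ppp1r1b, the gene of DARPP-32, which blocks protein phosphatase 1 once protein kinase A has acted on it, lies on chromosome 11 from 98348404 to 98357796. NCD replicates 1, 2 and 3 held 295, 299 and 265 CPM and HFD replicates 1, 2 and 3 held 316, 304 and 272 CPM. Replicate 3 of each diet gave the 2 lowest levels, and HFD replicates 1 and 2 gave the 2 highest. The average was 286 ± 18.4 CPM with NCD and 297 ± 22.9 CPM with HFD (SD, n = 3 each). It was the only one of the 6 with a positive log2 fold change, 0.0552 (standard error 0.10, 95% interval -0.16 to 0.27). 1700003D09Rik shares 460 exon bases on the other strand and had 1 to 11 counts.

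**Figure D2:**
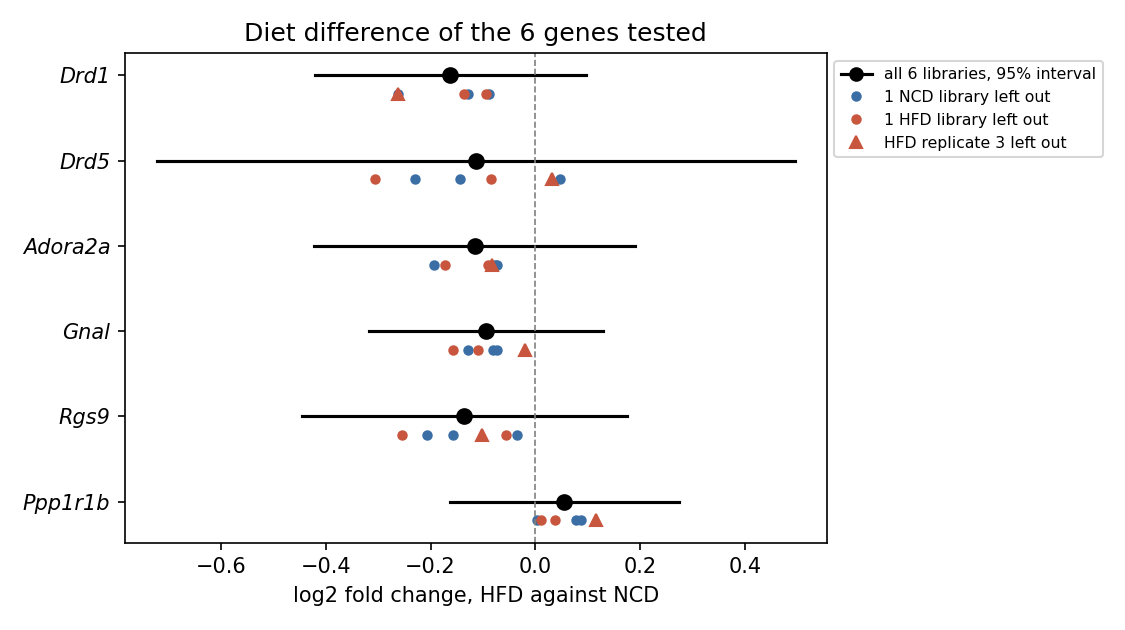
Log2 fold change (horizontal axis, HFD against NCD) of the 6 tested genes with all libraries (black, 95% interval) and with 1 library left out (coloured, a triangle where it is HFD replicate 3). All 6 intervals include 0, and Drd1 is at -0.26 without HFD replicate 3 (adjusted p = 0.99986 in edgeR).

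Adjusted p-values from edgeR were 0.979 for Adora2a, Gnal, Rgs9 and Ppp1r1b and 0.981 for Drd5. A p above the threshold does not show equal levels, and the intervals state what these libraries allow. In multiples of the NCD level they were 0.802 to 1.09 for Gnal, 0.893 to 1.21 for Ppp1r1b, 0.746 to 1.14 for Adora2a, 0.735 to 1.13 for Rgs9 and 0.606 to 1.41 for Drd5. The median standard error was 0.13 for the 6 genes and 0.16 for all genes tested.

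Between genes, levels were compared as CPM per kilobase of GENCODE exon sequence, although reads at the 3′ end do not grow in number with length. Ppp1r1b was highest with 90.5 to 108 over the 6 libraries, followed by Drd1 with 34.7 to 47.1 and Gnal with 17 to 20.9. Adora2a had 6.33 to 7.62, Rgs9 3.83 to 5.33, Drd5 1.18 to 1.97 and Drd4 0.0426 to 0.365 CPM per kilobase. These 7 ranges did not overlap, but 2 places of the order depend on the division by length. By CPM alone each library put Gnal (190 to 234) above Drd1 (126 to 171) and Rgs9 (24.5 to 34.0) above Adora2a (19.4 to 23.3), again without overlap. As a coefficient of variation of CPM over the 6 libraries, the spread was 6.71% for Ppp1r1b, 7.48% for Gnal, 8.75% for Adora2a, 12.6% for Drd1, 12.7% for Rgs9 and 19.9% for Drd5.

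The 6 genes did not move as 1 block over the libraries. With each gene set against its own mean as a z-score of log2 CPM, NCD replicates 1, 2 and 3 had a mean of 0.51, -0.41 and 0.72 while those of HFD had 0.47, -0.38 and -0.90. Both diets thus had high and low libraries. In HFD replicate 3, the lowest, Drd1 stood above its own mean at 0.58 and the other 5 genes below theirs. Pearson's r was positive for 11 of the 15 pairs of genes, and for 8 without the 2 libraries farthest from the median of the first gene of a pair, and 7 pairs changed sign. Drd5 and Rgs9 had the highest, 0.87 (Spearman's rho 0.83), and 0.83 without 2 such libraries. Adora2a and Rgs9 had 0.84 (rho 0.66), and 0.92 without 2 such libraries. Drd1 and Ppp1r1b had the lowest, -0.81 (rho -0.77), and -0.68 without 2 such libraries. By contrast Drd5 and Gnal went from 0.67 to -0.22, Drd1 and Rgs9 from 0.51 to -0.35, and Rgs9 and Ppp1r1b from -0.21 to 0.87. All pairs share the 6 libraries and their scaling, and these values are a description.

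**Figure D3:**
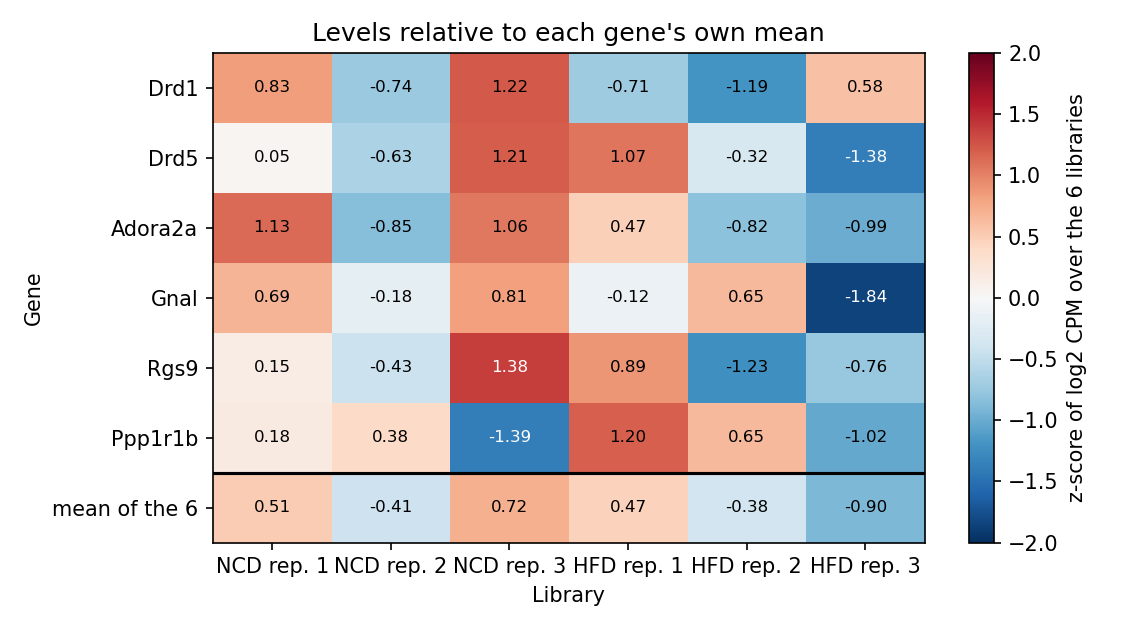
Z-scores of log2 CPM (colour and printed value) of the 6 tested genes (rows) in the 6 libraries (columns), with their mean below. The mean is highest in NCD replicate 3 and lowest in HFD replicate 3, where Drd1 alone is above 0.

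Among 10575 other genes with a mean count of at least 50, the log2 CPM of Pgd, Ltk, Trim46, Snx18 and Xkr6 followed that mean most closely over the 6 libraries, with r from 0.986 to 0.995. Pgd had 27.3, 23.6 and 27.9 CPM in the NCD libraries while those of HFD had 27.5, 24.3 and 22.1 CPM, highest in NCD replicate 3 and lowest in HFD replicate 3. They were picked for this likeness.

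The ratio of Drd1 to Drd2 could not be formed from 1 Drd2 count, and Drd1 to Adora2a took its place, a choice made after the counts were seen. On the log2 scale NCD replicates 1, 2 and 3 had a ratio of 2.79, 2.75 and 2.87, while those of HFD had 2.59, 2.66 and 3.01. The lowest and the highest ratio were both on HFD, and the means differed by -0.0487, less than the SD of 0.0614 and 0.223. With 1 library left out that difference ran from -0.18 to 0.0329, and it was above 0 without HFD replicate 1. Direct-pathway minus indirect-pathway markers, in mean log2 CPM, came to -0.55 ± 0.330 with NCD and -0.54 ± 0.0276 with HFD (SD, n = 3 each), a difference that ran from -0.16 to 0.17 with 1 library left out and was below 0 without NCD replicate 2 or HFD replicate 2. Markers of both projection neurons minus cortical markers came to 0.00835 ± 0.0509 and -0.0523 ± 0.0758 (SD, n = 3 each).

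The genes around the receptors were read in 10 lists with 114 genes, 106 of them tested. An adjusted p under 0.05 was reached by 0 of the 106 in edgeR, in DESeq2 and in limma after quantile normalization. An unadjusted p under 0.05 was reached by 3, or 2.83%, beside 3.68% of all genes, and these were Gch1, Th and Homer1 (edgeR). The diets did not overlap for 5, or 4.72%, beside 8.81% of all genes, and these were Gch1 and Arrb2 (lower with HFD) and Rxrg, Homer1 and Fosb (higher with HFD). The median log2 fold change of the 106 was -0.0235.

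Of the markers of striatal projection neurons 0 rose and 0 fell in each of 3 lists, while single markers lay on both sides of 0. Their medians in log2 fold change were -0.0352 for the direct pathway (8 of 8 tested), -0.00760 for the indirect pathway (3 of 5) and -0.0470 for markers of both (19 of 19), in ranges of -0.33 to 0.26, -0.26 to 0.0811 and -0.16 to 0.24. Tac1, the substance P precursor, averaged 77.2 ± 8.16 CPM with NCD and 85.3 ± 7.56 CPM with HFD (SD, n = 3 each), a log2 fold change of 0.14. Pdyn, the dynorphin precursor, was at -0.16 and the muscarinic receptor gene Chrm4 at 0.26. Penk averaged 260 ± 32.2 CPM with NCD and 258 ± 9.87 CPM with HFD (SD, n = 3 each) and was at -0.00760, beside 0.0811 for the transcription factor gene Sp9 and -0.26 for the kainate receptor gene Grik3. Of the shared markers, the phosphodiesterase gene Pde10a was at 0.0344 and Adcy5, the main striatal adenylyl cyclase, at -0.0785. The 19 shared markers summed to 2407 to 2554 CPM with NCD and 2428 to 2466 CPM with HFD. The retinoid receptor gene Rxrg, named after its values were seen, was the only one of the 19 whose diets did not overlap, averaging 23.8 ± 1.87 CPM with NCD and 28.1 ± 2.37 CPM with HFD (SD, n = 3 each), at an unadjusted p of 0.103 in edgeR.

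Inside the cell, 0 genes rose and 0 fell among G proteins and their regulators (15 of 16 tested, median -0.00640), among cyclic AMP, kinase and phosphatase genes (20 of 20, median -0.0109) and among genes of receptor desensitization (12 of 12, median -0.0675). The log2 fold change was 0.00465 for Gnas, the stimulatory alpha subunit, -0.12 for Gnao1, an alpha subunit abundant in brain, and 0.0909 for Gnb5, the beta subunit that binds Rgs9. Prkaca, a catalytic subunit of protein kinase A, was at -0.18, Ppp1ca, a catalytic subunit of the phosphatase that DARPP-32 blocks, at -0.00526, and Cdk5, a kinase that acts on DARPP-32, at 0.00518. The receptor kinase gene Grk2, listed under its older symbol Adrbk1, was at -0.0816, the arrestin gene Arrb2, whose diets did not overlap, at -0.34, and Ncs1, a neuronal calcium sensor, at -0.12.

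In the adenosine system 8 of 10 genes were tested and 0 rose or fell, with a median of 0.0576. Adora1, the adenosine receptor that is found throughout the forebrain, averaged 259 ± 26.6 CPM with NCD and 238 ± 7.66 CPM with HFD (SD, n = 3 each), a log2 fold change of -0.12. Nt5e, which makes adenosine outside the cell, was at 0.26 and the transporter gene Slc29a1 at 0.0549. Of 7 immediate early genes, which D1 stimulation can induce, 0 passed after adjustment, and their median was 0.00844. Homer1, whose short form is induced by activity, averaged 132 ± 6.27 CPM with NCD and 158 ± 23.1 CPM with HFD (SD, n = 3 each), and all 3 HFD libraries were above those of NCD. Its log2 fold change of 0.26 had an unadjusted p of 0.0444 and an adjusted p of 0.979 in edgeR, and became 0.13 without HFD replicate 3. Its unadjusted p was over 0.05 in 4 of the 6 fits with 1 library left out, at 0.0730, 0.0691 and 0.118 without NCD replicates 1, 2 and 3 and 0.170 without HFD replicate 3 (edgeR). Fos was at -0.40, Arc at -0.00160 and Egr1 at 0.24, and without NCD replicate 3 Fos was at 0.27 and Arc at 0.29.

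**Figure D4:**
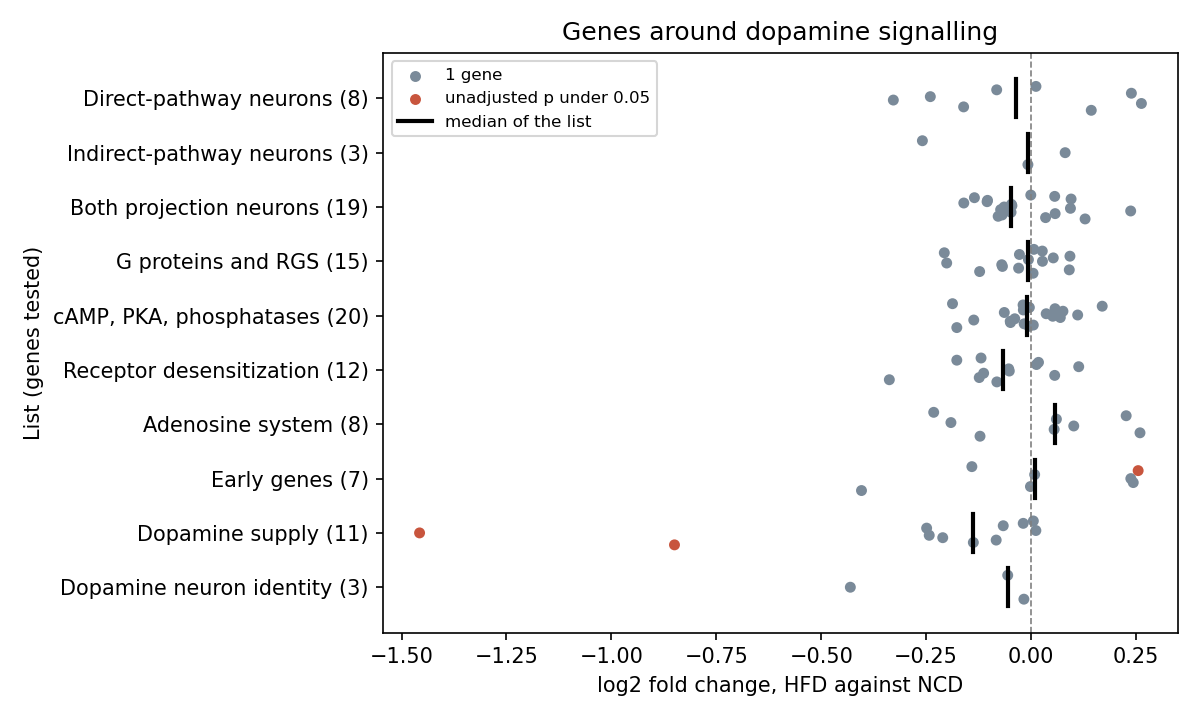
Log2 fold change (horizontal axis, HFD against NCD) of each tested gene (points) in the 10 lists (rows), with the median of a list as a black bar. The 3 red points have an unadjusted p under 0.05: Gch1 at -1.46, Th at -0.85 and Homer1 at 0.26.

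Dopamine itself comes mainly from midbrain neurons, and of 11 genes of its synthesis, transport and breakdown, all tested, 0 rose or fell after adjustment, with a median of -0.14. For Th, the rate-limiting enzyme tyrosine hydroxylase, NCD replicates 1, 2 and 3 held 100, 189 and 145 counts and HFD replicates 1, 2 and 3 held 60, 128 and 26 counts. The diets overlapped, and Th stood at a log2 fold change of -0.85, unadjusted p = 0.0160 and adjusted p = 0.979 in edgeR. Left without HFD replicate 3 it was -0.48 (unadjusted p = 0.0567 in edgeR), and without NCD replicate 2 -0.64 (unadjusted p = 0.0842). Without HFD replicate 2 it was -1.40 (unadjusted p = 0.000495, adjusted p = 0.627 in edgeR). Over all settings run, in edgeR, DESeq2 and limma, the adjusted p of Th was at least 0.0665. For Gch1, which starts the synthesis of the cofactor that Th needs, NCD replicates 1, 2 and 3 held 27, 37 and 31 counts and HFD replicates 1, 2 and 3 held 12, 14 and 4 counts. All 3 HFD libraries were below those of NCD, at a log2 fold change of -1.46, an unadjusted p of 0.00318 and an adjusted p of 0.979 in edgeR. With 1 library left out, Gch1 ran from -1.70 to -1.12, at unadjusted p of 0.00423 to 0.0185 and adjusted p of at least 0.839 (edgeR). Slc6a3, the dopamine transporter, was at -0.14, and at 0.16 without HFD replicate 3. Of 6 identity genes of dopamine neurons 3 were tested, Nr4a2 at -0.0172, En1 at -0.43 and Aldh1a1 at -0.0557.

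Neuronal markers summed to 4744 to 5017 CPM with NCD and 4776 to 4803 CPM with HFD, and cortical markers to 773 to 907 CPM and 835 to 894 CPM. The 3 pituitary markers summed to 3.33 to 8.52 CPM with NCD and 1.31 to 1251 CPM with HFD, the top being HFD replicate 3. The 3 liver markers summed to 7.90 to 38.8 CPM and 4.61 to 8.41 CPM. Their log2 fold changes were -2.19 for Alb, -1.03 for Apoa1 and -2.10 for Fgb. Each had an unadjusted p under 0.05 in edgeR, as did 3.68% of all genes. The part of these transcripts in the values of the dopamine genes was not tested.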

How the data were processed

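The authors made QuantSeq 3′ libraries, trimmed adaptors, mapped reads to mm10 with Bowtie2 and counted unique and multiple alignments per gene with Bedtools. The counts deposited were raw whole numbers. The annotation and the use of strand in counting are not given in the sources used here, and 79 entries share a symbol with another.

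The 6 libraries were fitted in edgeR 4.0.16 (R 4.3.3) with filterByExpr (minimum count 10, minimum total 15), TMM factors, a quasi-likelihood F-test without covariates, and Benjamini-Hochberg adjustment over 13771 genes. The fit was also run on simulated counts, whose planted changes were larger than the differences of the 6 tested genes. That run cannot show whether differences of their size would be found. Replicates differed beyond sampling noise, with a chi-square of 3.47 to 16.0 per degree of freedom. Z-scores used log2 CPM with a prior count of 2. Drd4 came from a fit without a filter. Depth was 6842785 to 9689372 counts.

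The 9 genes and the lists were chosen with earlier results of these data known. Named genes were the 9, the first 3 tested genes of a list, list genes at an unadjusted p under 0.05 and the 5 genes most like the mean z-score, and some that this rule names are not reported here. Alternatives were DESeq2 1.42.0, other scalings, limma 3.58.1 on quantile-normalized log2(CPM + 1), other filters, omission of genes above 2% of a library, robust dispersions, a replicate block and omission of single libraries.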

Additional observations from a re-analysis of the deposited data

How the results depend on the processing

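The 6 tested genes had an adjusted p over 0.05 under each alternative run, and of their directions only that of Drd5 turned. With 1 library left out, 0 to 1 of the 6 had an unadjusted p under 0.05, beside 411 to 773 of all genes. The 1 was Drd1 without HFD replicate 3, at an adjusted p of 0.99986 in edgeR. Same-numbered libraries did not deviate together (r of -0.03, 0.05 and -0.06). With 3 libraries per diet these values cannot decide whether the numbers mark pairs or a shared batch. Replicate 3 had the lowest TMM factor in each diet, and a shared batch was not tested. With the replicate block 0 of the 6 and 371 of all genes had an unadjusted p under 0.05, against 507 without it. The leave-one-out values of the ratios were added after seeing the data.

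Over all genes, 23 reached an adjusted p under 0.05 without a filter, 2 with DESeq2, and 0 to 3 with 1 library left out. Gh (adjusted p = 5.0e-29 in edgeR) and Alb (2.6e-10) were among the 23. Alb also passed without NCD replicate 3 (adjusted p = 0.0418 in edgeR). At an unadjusted p under 0.05 there were 902 without a filter and 411 to 773 with 1 library left out, and of the list genes 2 to 6, the 6 without HFD replicate 1 and 5 without NCD replicate 1. List medians with 1 library left out ran from -0.0739 to 0.0527 for the direct pathway, -0.20 to 0.0366 for the indirect pathway, -0.0880 to -0.0103 for receptor desensitization, -0.26 to -0.0646 for dopamine supply, -0.0283 to 0.0721 for the adenosine system, -0.11 to 0.27 for early genes, -0.15 to 0.28 for cholinergic neurons, -0.26 to 0.18 for hippocampus, -0.0279 to 0.0311 for neurons, 0.00733 to 0.0948 for oligodendrocytes, 0.0310 to 0.11 for microglia, -2.95 to -1.42 for liver. Without a filter the median of dopamine neuron identity was -0.24, and after quantile normalization that of liver was -1.23. Single genes ran from -0.31 to 0.0465 for Drd5, -0.11 to 0.0536 for Penk, -0.20 to 0.67 for Sp9, -0.0502 to 0.11 for Pde10a, -0.0418 to 0.0508 for Gnas, -0.21 to 0.00386 for Gnao1, -0.0250 to 0.15 for Gnb5, -0.14 to 0.0945 for Ppp1ca, -0.00822 to 0.0214 for Cdk5, -0.37 to 0.16 for Slc6a3, -0.0838 to 0.0268 for Nr4a2, -0.0283 to 0.57 for Nt5e, -0.0211 to 0.14 for Slc29a1, -0.72 to 0.27 for Fos, -0.20 to 0.29 for Arc, -1.71 to 6.72 for Gh, -2.95 to -1.42 for Alb. Near 0 the sign also turned for Gnas at -0.0151 (library size alone), Cdk5 at -0.0149 (library size alone), Cdk5 at -0.000820 (quantile normalization with limma), Arc at 0.00271 (DESeq2), Arc at 0.00150 (upper-quartile scaling), Arc at 0.0470 (quantile normalization with limma), Arc at 0.0326 (replicate block). The causes were not tested.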

Other observations

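In the striatum, dopamine inhibits cholinergic interneurons through the D2 receptor. Cholinergic neurons of the whole forebrain, not these interneurons alone, were read by Chat, Slc18a3, Slc5a7 and Lhx8. All 4 were tested, 0 rose and 0 fell in edgeR, and the median log2 fold change was 0.13. For Chat, the enzyme that makes acetylcholine, NCD replicates 1, 2 and 3 held 90, 103 and 77 counts and HFD replicates 1, 2 and 3 held 98, 105 and 48 counts. The 4 genes summed to 22.1 to 22.7 CPM with NCD and 15.3 to 27.4 CPM with HFD, and the median turned negative without NCD replicate 3 and without HFD replicate 1.

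Of the regions around the striatum, cortex had a median log2 fold change of 0.0295, thalamus -0.0880 and hippocampus -0.0272. The medians were 0.0347 for general neuronal markers, -0.0288 for astrocytes, 0.0685 for oligodendrocytes, 0.0529 for microglia, 0.31 for endothelium and 0.00538 for choroid plexus. In these 9 lists 0 genes reached an adjusted or an unadjusted p under 0.05 in edgeR. The endothelial gene Cldn5, chosen after its values were seen, was the only one whose diets did not overlap, beside 8.81% of all genes. It averaged 7.84 ± 0.515 CPM with NCD and 9.73 ± 0.447 CPM with HFD (SD, n = 3 each).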
